A study of Homo sapiens with 6 samples.

Results

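The genes described here are 35 human genes whose products repair broken or miscopied DNA by homologous recombination, the Fanconi pathway and mismatch repair, together with the checkpoint kinases that signal such damage. They were chosen by name and pathway, by a rule that uses no measured value, but with earlier results of these data known. They make up 35 of the 58478 genes that the table yields and 35 of the 17396 that passed the filter on low counts, so every listed gene was tested. RNA was sequenced from 6 libraries labelled Huh7, an established line from a human hepatocellular carcinoma, labelled WT and grown in DMEM with serum. For 24 h, 3 cultures stayed at 21% oxygen (normoxia) and 3 at 1% oxygen (hypoxia), so the single comparison is of low against standard oxygen in 1 cell line. The question it addresses is how a day of low oxygen changes the RNA of these cells. The libraries are named by their columns, normoxia C1 to C3 and hypoxia C4 to C6, and they held 37621426 to 40794783 expected counts each.

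As background, homologous recombination repairs a double-strand break by cutting back one strand at each end, loading a recombinase onto the exposed strand and copying the sister chromatid. The Fanconi pathway removes crosslinks between the strands: a core complex attaches ubiquitin to the FANCD2 and FANCI pair, which then calls in nucleases and recombination. Mismatch repair removes bases that were paired wrongly in replication. Many of these genes are expressed mainly in cycling cells, and their products are studied in liver cancer because they decide how cells survive DNA-damaging drugs.

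The labels were checked first. All 8 listed genes that oxygen shortage is known to induce rose, and NDRG1, a stress-response gene, went from 379 ± 7.0 to 7640.0 ± 203 CPM (SD, n = 3; CPM is a count scaled to the normalised library total). Of 10 listed hepatocyte markers, 7 stayed under 1 CPM in every library, and AFP, APOA1, TTR and GPC3 were at 0. The libraries thus show few of the liver markers that the label would lead one to look for. The 3 that could be tested rose in hypoxia, HNF4A from 1.30 to 7.01, TF from 8.24 to 12.1 and SERPINA1 from 0.067 to 1.83 CPM on average. The sum over all 10 markers ran from 8.87 to 10.7 CPM in normoxia and from 20.8 to 21.6 CPM in hypoxia. The summed markers of fibroblasts (5 genes, 4 of them under 1 CPM in every library and COL1A2 at 0) ran from 70.5 to 73.0 and from 52.8 to 61.8 CPM. Those of endothelial cells (4 genes, 2 of them under 1 CPM and KDR at 0) ran from 11.3 to 12.3 and from 4.97 to 5.79 CPM, and those of immune cells (5 genes, 2 of them under 1 CPM and PTPRC at 0) from 7.0 to 7.13 and from 43.6 to 53.3 CPM. Each sum rests on few genes. Of the tested markers, 1 fibroblast gene fell and 1 rose, 2 endothelial genes fell and 1 rose, and 2 immune genes rose. Another 1 immune gene did not pass the test described below. Whether these marker levels had a part in the results was not tested. In bulk RNA, fewer cells of a type and less RNA per cell cannot be told apart.

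In hypoxia, 24 of the 35 repair genes fell, 3 rose and 8 did not pass the test (edgeR's quasi-likelihood test, adjusted p under 0.05). Over all genes tested, 36.3% fell and 36.5% rose. Of the 13140 protein-coding genes tested, 5644 fell and 4560 rose. The median log2 change of the repair genes was -0.46, beside 0.02 over all genes tested and -0.08 over the protein-coding genes among them. At least a 2-fold fall was measured for 6 members, namely MRE11, FANCF, RAD51D, FANCE, EXO1 and CHEK2. As far a fall was found in 11.4% of all genes and in 1607 of the 13140 protein-coding ones. No member rose 2-fold, while 3037 of the 17396 genes tested and 1795 of the 13140 protein-coding ones did. The 3 hypoxic libraries did not overlap the 3 normoxic ones in CPM for 28 of 35 members. The same held for 75.7% of all genes tested and for 10499 of the 13140 protein-coding ones. By length-scaled level (FPKM, fragments per kilobase of transcript scaled to library size, recomputed here from the counts and summed over transcripts), the members spanned a wide range in normoxia, from FANCI at 59.7 ± 2.73 and CHEK2 at 45.0 ± 1.21 down to FANCF at 0.745 ± 0.253. The p-values weigh each difference against the spread between these cultures of 1 cell line.

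**Figure D1:**
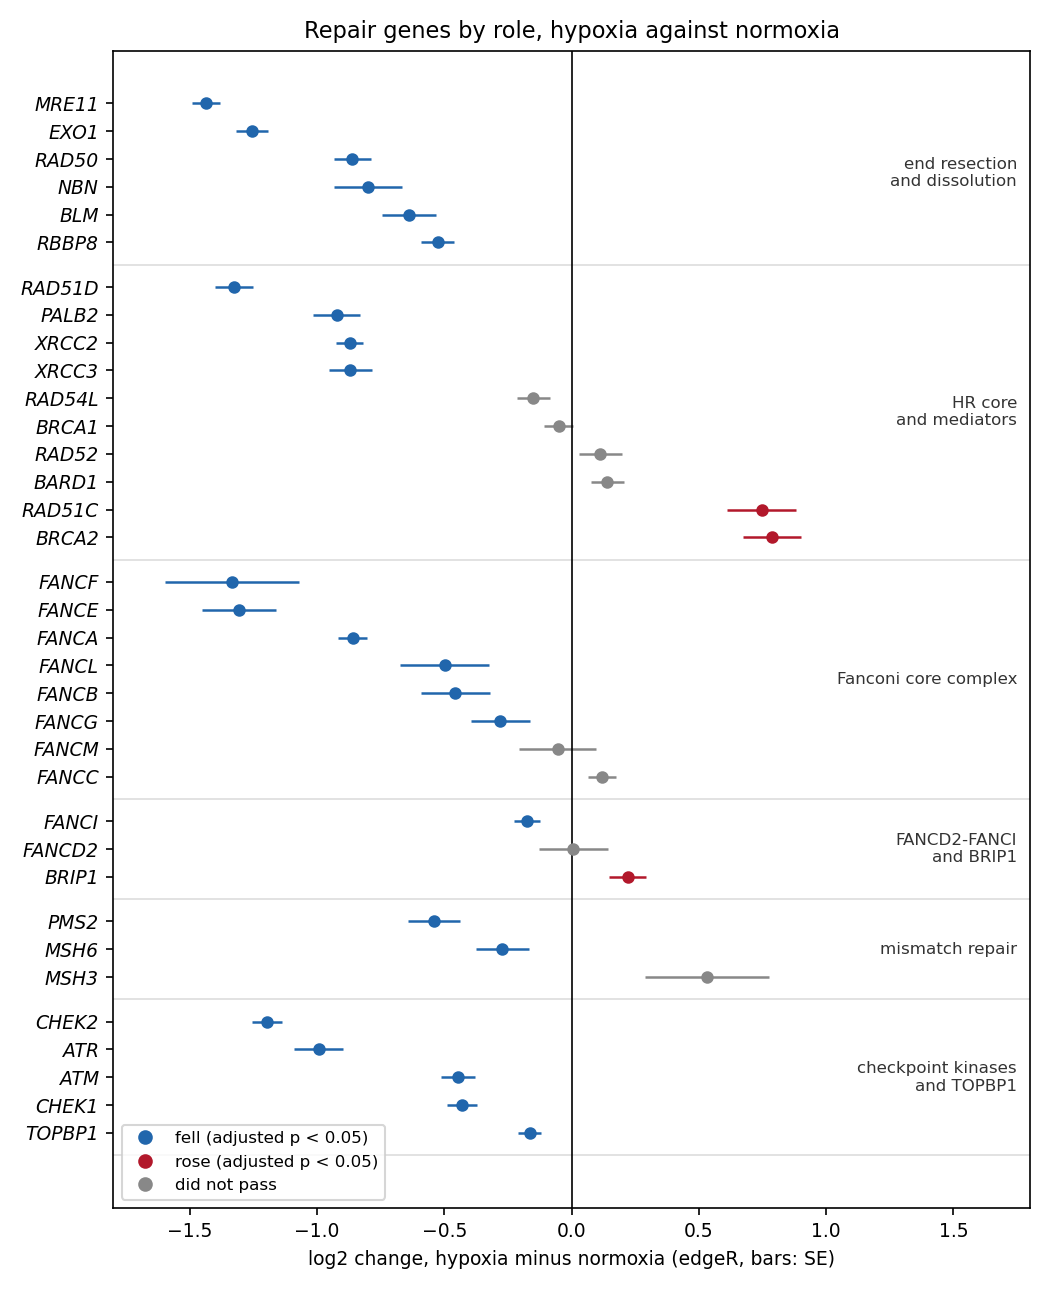
Each point is the log2 change of one of the 35 repair genes, hypoxia minus normoxia, from edgeR, with its SE as the bar. Blue points fell, red points rose and grey points did not pass the test. All 6 end-resection genes and all 5 checkpoint genes lie left of 0, while the recombination genes lie on both sides, from RAD51D at -1.33 to BRCA2 at 0.79.

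The genes that open a break for recombination fell: all 6 of the end-resection and dissolution group were lower in hypoxia, with a median log2 change of -0.83. MRE11, the nuclease of the complex that first grips and trims a broken end, had the largest fall of any member. It measured 80.5, 81.7 and 87.0 CPM in normoxia C1 to C3 and 30.4, 29.2 and 32.4 CPM in hypoxia C4 to C6. Every hypoxic library was far below every normoxic one in the plot of counts per library, and the fall was 2.71-fold (log2 change -1.44, SE 0.06, adjusted p = 2.73e-09). Its partners fell less: RAD50, the ATPase that bridges the ends, measured 66.4, 80.9 and 73.7 CPM and then 41.7, 38.5 and 41.4 CPM (-0.86, SE 0.07, adjusted p = 1.19e-06). NBN, which recruits the ATM kinase to the complex, measured 32.1, 37.8 and 39.8 CPM and then 22.2, 16.3 and 24.6 CPM (-0.80, SE 0.13, adjusted p = 0.000291). The groups did not overlap for either partner.

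EXO1, the exonuclease that extends resection and also cuts in mismatch repair, measured 28.2, 29.6 and 29.7 CPM in normoxia and 12.2 CPM in each hypoxic library, a 2.39-fold fall (SE 0.06 on the log2 scale, adjusted p = 2.04e-08). BLM, the helicase that unwinds joint molecules, went from 42.0 ± 6.95 to 27.0 ± 1.2 CPM (-0.64, SE 0.11, adjusted p = 0.000282). RBBP8, which encodes CtIP, the partner that switches on the MRE11 nuclease, went from 57.8 ± 2.20 to 40.1 ± 3.54 CPM (-0.53, SE 0.07, adjusted p = 3.06e-05). NBN's call depended on which transcripts were summed. With transcripts annotated as protein-coding alone its log2 change was -0.35 and with its most abundant transcript alone -0.47, and neither met the threshold. The transcript NBN-210, annotated for nonsense-mediated decay (the route that destroys mRNA with an early stop), fell from 12.7 ± 0.93 to 3.68 ± 1.73 CPM in a fit over single transcripts (adjusted p = 0.00756).

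**Figure D2:**
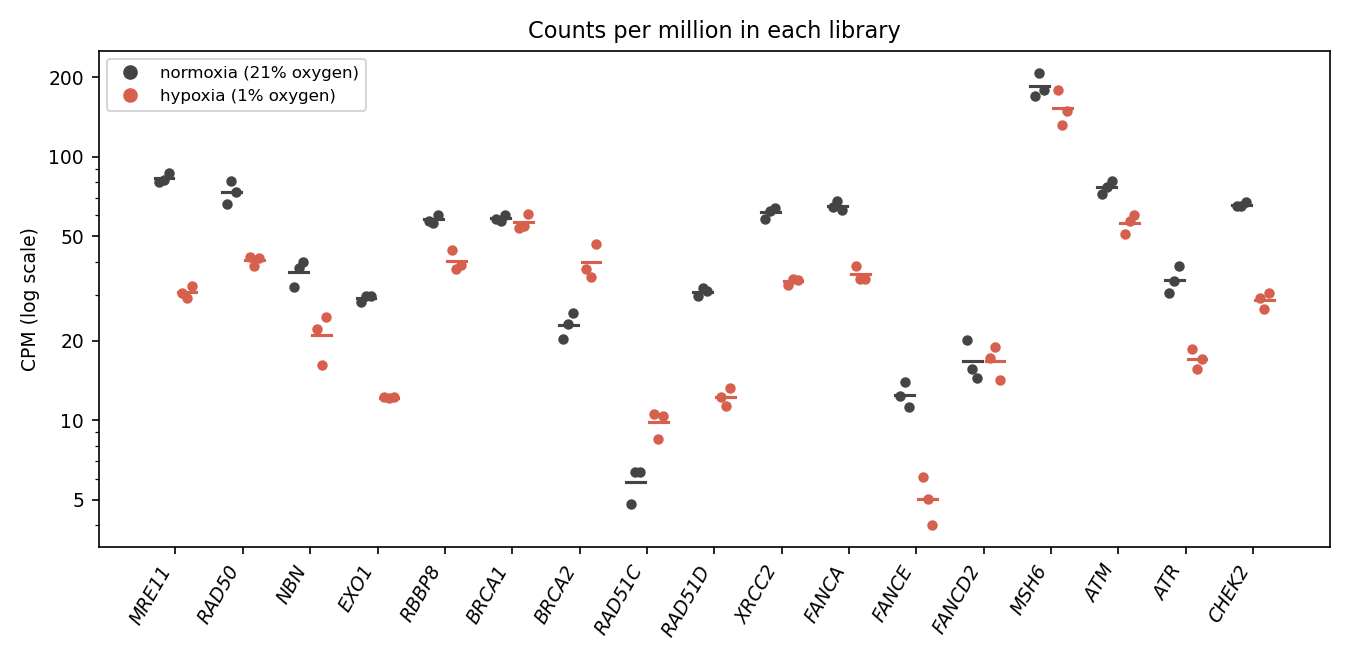
CPM of 17 repair genes in each of the 6 libraries, on a log scale, with normoxia in grey, hypoxia in orange and a line at each group's mean. The hypoxic points of MRE11, EXO1, RAD51D and CHEK2 lie wholly below the normoxic ones, those of BRCA2 and RAD51C wholly above, and those of BRCA1, FANCD2 and MSH6 overlap.

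The moderate fall of RBBP8 as a whole joined opposite movements of its main transcripts. RBBP8 lies on chromosome 18 (GRCh38, 22798261 to 23026488, plus strand), and its messages mostly begin at either of 2 neighbouring groups of annotated starts. RBBP8-201 begins at 22933315, and the group led by RBBP8-204 begins 511 bases or more downstream, between 22933826 and 22933881. Of their 19 exons each, 17 are identical, the first exons are wholly separate and the coding parts are the same over 2691 bases. RBBP8-201 measured 5.58, 6.03 and 7.41 CPM in normoxia and 26.6, 20.5 and 21.6 CPM in hypoxia, a 3.61-fold rise (edgeR over single transcripts, adjusted p = 0.000386). RBBP8-204 measured 40.4, 40.4 and 40.9 CPM and then 11.5, 11.2 and 11.8 CPM, a 3.53-fold fall (adjusted p = 1.20e-05). For both transcripts the groups were far apart, in opposite directions.

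As a share of all RBBP8 counts, RBBP8-201 held 9.81%, 10.5% and 12.0% in normoxia and 60.1%, 55.2% and 56.1% in hypoxia. The downstream start group held 85.4% ± 1.49 and then 36.9% ± 2.72 (SD, n = 3). With shares taken from FPKM, RBBP8-201 went from 8.39% ± 1.0 to 47.5% ± 2.53. A shift of the start share by at least 10 points with no overlap of the groups was found in 5 of the 33 members with several starts and 100 counts or more (RBBP8, CHEK2, FANCM, PALB2 and CHEK1), beside 11.2% of 9777 genes of that kind. Only 19 of those 9777 genes, or 0.194%, shifted by as much as RBBP8. The exact permutation test over 3 against 3 libraries cannot give a p below 0.1, so these shares stand as descriptions. Since the messages differ only at their first exon and by the last exon's end, the division of counts rests on the reads that reach those parts.

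**Figure D3:**
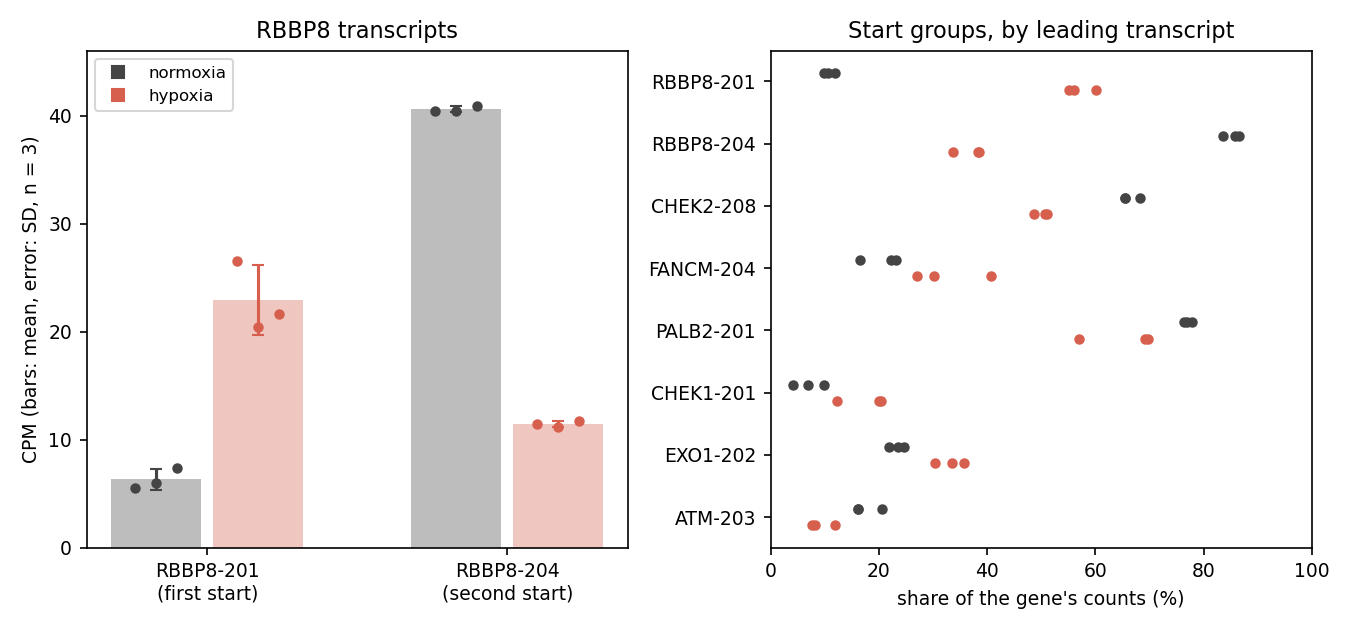
Left, CPM of RBBP8-201 and RBBP8-204 in each library, with bars at the group mean and SD as the error. Right, the share of a gene's counts at 8 groups of neighbouring starts, named by their leading transcript, in normoxia (grey) and hypoxia (orange). RBBP8-201 moved from 9.81% to 12.0% in normoxia to 55.2% to 60.1% in hypoxia, and the start groups of the other genes moved by less.

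The 250 bases before the RefSeq start of RBBP8 are shown because that start lies 13 bases after the start of RBBP8-201, the one that gained. The last 13 bases of the stretch are therefore within RBBP8-201. They are GRCh38.p14 chr18:22933078-22933327, plus strand, with the letters GCGTG in capitals, which together with ACGTG form the core that hypoxia-inducible factors are known to bind.

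RBBP8: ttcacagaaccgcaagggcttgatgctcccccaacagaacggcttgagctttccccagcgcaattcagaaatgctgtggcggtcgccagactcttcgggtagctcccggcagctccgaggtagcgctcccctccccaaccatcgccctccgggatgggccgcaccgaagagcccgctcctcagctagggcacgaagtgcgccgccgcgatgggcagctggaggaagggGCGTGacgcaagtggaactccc

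One match begins 22 bases before the RefSeq start, which is 9 bases before the start of RBBP8-201. A second begins at the RefSeq start base itself, just outside the stretch shown. The core is short and common: on either strand, ACGTG or GCGTG stood in 48.4% of 27305 RefSeq promoter windows of 300 bases, and in 25 of the 33 member windows (75.8%). Where ACGTG stands on both strands at once, as CACGTG, the matches overlap. No binding was measured. The members with a match fell in 16 of 25 cases and those without one in 6 of 8. Each member was searched in a single window, which did not always lie at the leading start group. That of BRCA1, without a match, lies at a minor upstream start, and further cases are given below.

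Homologous recombination proper, the strand-exchange machinery and its mediators, went both ways: of its 10 members, 4 fell and 2 rose, and the median log2 change was -0.10. The 4 relatives of the recombinase among them form small complexes that help it load and stay on single-stranded DNA, and 3 of them fell. RAD51D measured 29.6, 31.7 and 30.9 CPM in normoxia and 12.2, 11.3 and 13.2 CPM in hypoxia, 2.51-fold lower (-1.33, SE 0.07, adjusted p = 4.81e-08). XRCC2, its direct partner, measured 58.2, 62.3 and 64.0 CPM and then 32.5, 34.2 and 34.2 CPM (-0.87, SE 0.05, adjusted p = 1.05e-07). XRCC3 went from 31.9 ± 1.43 to 17.5 ± 2.10 CPM (-0.87, SE 0.09, adjusted p = 4.64e-06). RAD51C, which sits in both of their complexes, moved the other way, from 4.83, 6.35 and 6.37 CPM to 10.6, 8.47 and 10.4 CPM (0.75, SE 0.14, adjusted p = 0.000528). None of these 4 genes had overlapping groups, and RAD51C alone among them rose. Its counts were low and spread over short or non-coding transcripts as well. RAD51C-203, of 567 bases, rose from 1.93 ± 0.40 to 3.66 ± 0.41 CPM (edgeR over single transcripts, adjusted p = 0.0255). RAD51C-210, annotated for nonsense-mediated decay, measured 0.13 ± 0.16 and 1.22 ± 0.54 CPM (adjusted p = 0.0670), and RAD51C-201 0.27 ± 0.24 and 0.50 ± 0.39 CPM (adjusted p = 0.641). Protein-coding transcripts held 54.4% ± 10.3 and then 57.6% ± 4.67 of the RAD51C counts.

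BRCA2 and PALB2 also parted. BRCA2, which delivers the recombinase to resected DNA, measured 20.3, 23.2 and 25.6 CPM in normoxia and 37.5, 34.9 and 46.7 CPM in hypoxia, 1.73-fold higher (0.79, SE 0.11, adjusted p = 9.41e-05). PALB2, the bridge that joins BRCA2 to BRCA1, measured 25.6, 26.2 and 21.6 CPM and then 13.9, 12.2 and 12.6 CPM, 1.90-fold lower (-0.92, SE 0.09, adjusted p = 5.05e-06). For both genes the groups stood apart, in opposite directions. On FPKM the rise of BRCA2 was smaller, with log2 changes of 0.35 to 0.45 by limma, depending on the pseudocount. BRCA1, the ubiquitin ligase that promotes resection, stayed at 58.3 ± 1.58 and 56.3 ± 3.87 CPM (-0.05, SE 0.06, adjusted p = 0.434) and its ligase partner BARD1 at 32.2 ± 2.21 and 35.5 ± 1.5 CPM (0.14, SE 0.06, adjusted p = 0.0699). Single settings gave calls for both: BRCA1 was called lower with library totals (-0.20), and BARD1 higher with a filter of mean CPM 1 (0.17) and without normoxia C3 (0.19). RAD54L, a motor protein that remodels DNA during strand exchange, measured 36.9 ± 1.38 and 33.2 ± 2.49 CPM (-0.15, adjusted p = 0.0554). Its call changed with the setting: RAD54L was called lower on FPKM (-0.41 to -0.43, limma), with library totals (-0.30, edgeR), without a filter (-0.18) and without hypoxia C5 (-0.21).

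The total of RAD52, a single-strand annealing protein, did not pass, while the kinds of its transcripts differed. Its sum stood at 9.25 ± 0.31 CPM and then at 10.0 ± 0.27 CPM (0.11, SE 0.08, adjusted p = 0.246). Transcripts annotated as protein-coding held 63.9%, 53.6% and 54.6% of its counts in normoxia and 39.3%, 36.5% and 34.1% in hypoxia. Transcripts annotated with a retained intron, which do not encode the full protein, went from 33.4% ± 4.33 to 53.0% ± 6.35. Summed over protein-coding transcripts alone, RAD52 was called lower (log2 change -0.42, edgeR, adjusted p = 0.0269), and so was its most abundant transcript (-0.61, adjusted p = 0.0328). The direction of RAD52 therefore depends on which of its transcripts are counted.

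A lower protein-coding share with groups that do not overlap was found in 4 of 34 members with 100 counts or more (RAD52, CHEK2, ATM and PALB2), beside 21.6% of 11091 protein-coding genes. A higher one was found in 2 members, BRCA2 and RBBP8, beside 6.71% of those genes. For PALB2 the shift was of 1.13 points only. The exact permutation p was 0.1 for each of these 6 genes, the smallest that 3 against 3 libraries can give.

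**Figure D4:**
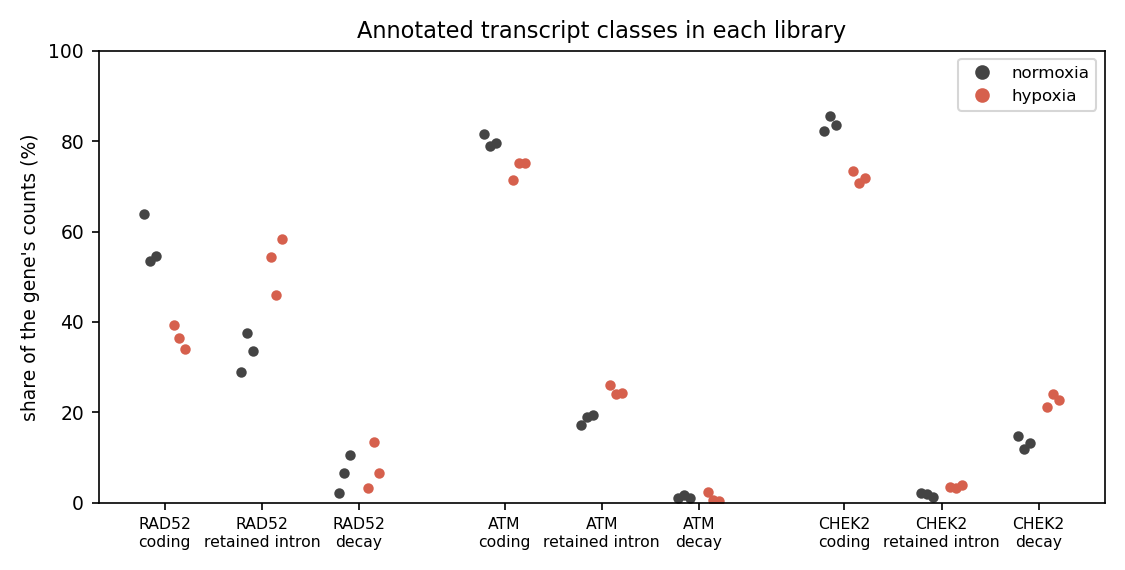
Share of each gene's counts in transcripts annotated as protein-coding, with a retained intron, or for nonsense-mediated decay, in each library (normoxia grey, hypoxia orange). The coding share is lower in all hypoxic libraries for RAD52, ATM and CHEK2, and the retained-intron share is higher for all 3 genes, from 33.4% to 53.0% on average in RAD52.

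In the Fanconi core complex, the ubiquitin ligase of the pathway, 6 of 8 members fell and none rose, and the median log2 change was -0.48. FANCE, which holds the substrate FANCD2, measured 12.3, 13.9 and 11.3 CPM in normoxia and 6.09, 5.04 and 4.01 CPM in hypoxia, 2.47-fold lower (-1.31, SE 0.15, adjusted p = 1.33e-05). FANCF, the adaptor beside it, is encoded by a single annotated transcript and had few reads, 1.79, 2.25 and 3.42 CPM and then 1.04, 0.980 and 0.928 CPM (-1.33, SE 0.26, adjusted p = 0.000950). On FPKM, FANCF fell by limma with log2 changes of -1.17, -0.68 and -0.45 at pseudocounts of 0.1, 0.5 and 1, a scale that understates the change of low genes, so its 2-fold size depends on the setting. FANCA, a scaffold of the complex, measured 64.4, 67.8 and 62.8 CPM and then 38.5, 34.5 and 34.4 CPM (-0.86, SE 0.06, adjusted p = 2.43e-07). For all 3 subunits the lowest normoxic library was above the highest hypoxic one.

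The other core members moved less. FANCL, the catalytic ligase subunit, went from 3.31 ± 0.63 to 2.34 ± 0.09 CPM (-0.50, SE 0.17, adjusted p = 0.0250), and its companion FANCB from 4.28 ± 0.27 to 3.12 ± 0.24 CPM (-0.46, SE 0.13, adjusted p = 0.0106). FANCG, the partner of FANCA, went from 21.2 ± 0.75 to 17.4 ± 3.19 CPM (-0.28, SE 0.12, adjusted p = 0.0491). Its hypoxic spread came mainly from library C6 at 13.8 CPM. FANCG lost its call without C6 (-0.14), and also without normoxia C1 (-0.29), C2 (-0.32) or C3 (-0.27) or hypoxia C5 (-0.32), with a filter of mean CPM 1 (-0.25) and with protein-coding transcripts alone (-0.27). On FPKM, FANCG went from 11.9 ± 0.94 to 7.20 ± 0.92, with a log2 change of up to -0.72 by limma. FANCL also lost its call without normoxia C2 (-0.36), without hypoxia C4 (-0.50) or without hypoxia C5 (-0.47) and with protein-coding transcripts alone (-0.38), and FANCB lost its call with protein-coding transcripts alone (-0.29). FANCC, which works with FANCE and FANCF, measured 30.8 ± 1.40 and 33.5 ± 0.96 CPM (0.12, adjusted p = 0.0798; called higher at 0.15 with a filter of mean CPM 1 and at 0.24 with protein-coding transcripts alone), and the DNA translocase FANCM, which anchors the complex, 18.8 ± 3.28 and 18.1 ± 3.66 CPM (-0.05, adjusted p = 0.752). Within FANCM, the retained-intron transcript FANCM-204 rose from 3.86 ± 0.17 to 5.73 ± 0.60 CPM (adjusted p = 0.0314), and its share went from 20.6% ± 3.62 to 32.6% ± 7.13.

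Of the pair that this ligase modifies, FANCI fell slightly and FANCD2 did not pass. FANCI, the most abundant member by FPKM, measured 160.3, 161.1 and 177.3 CPM in normoxia and 148.7, 140.3 and 152.7 CPM in hypoxia (-0.18, SE 0.05, adjusted p = 0.0110), and lost its call with protein-coding transcripts alone (-0.08). FANCD2, its partner, measured 20.2, 15.7 and 14.4 CPM and then 17.3, 19.0 and 14.3 CPM, with fully overlapping groups (0.01, SE 0.14, adjusted p = 0.968). BRIP1, a helicase that binds BRCA1, measured 20.1, 20.2 and 19.8 CPM and then 22.2, 22.2 and 25.7 CPM (0.22, SE 0.07, adjusted p = 0.0191). BRIP1 lost its call without hypoxia C6 (0.15), without normoxia C2 (0.22) or C3 (0.20), with library totals (0.07), with its most abundant transcript (0.16) and on FPKM (0.11 to 0.12).

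Of the mismatch repair members, 2 fell and 1 did not pass. PMS2, the endonuclease subunit that nicks the faulty strand, measured 18.6, 14.8 and 16.7 CPM in normoxia and 11.9, 12.1 and 10.4 CPM in hypoxia (-0.54, SE 0.10, adjusted p = 0.000694). It has near-identical copies in the genome, and the largest of them here, PMS2CL, went the other way, from 15.1 to 27.5 CPM on average, so the division of reads between them is uncertain. With its most abundant transcript alone, PMS2 had -0.16 and lost its call. MSH6, a subunit of the dimer that finds single mispairs, measured 169.8, 207.4 and 179.0 CPM and then 179.1, 132.2 and 149.4 CPM (-0.27, SE 0.10, adjusted p = 0.0355). Its groups overlapped, and MSH6 lost its call without normoxia C2 (-0.19), without hypoxia C5 (-0.17), without hypoxia C6 (-0.25), with DESeq2 (-0.27), with a filter of mean CPM 1 (-0.24) and with protein-coding transcripts alone (-0.17). MSH3, its counterpart for longer loops, measured 4.26, 3.05 and 5.28 CPM and then 6.54, 7.61 and 4.04 CPM (0.53, SE 0.24, adjusted p = 0.0702). MSH3 passed as higher without normoxia C3 (0.72), without hypoxia C6 (0.76), with DESeq2 (0.53) and without a filter (0.51).

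All 5 checkpoint members fell, with a median log2 change of -0.45. CHEK2, the effector kinase downstream of ATM, measured 64.8, 65.1 and 67.6 CPM in normoxia and 29.2, 26.5 and 30.5 CPM in hypoxia, 2.29-fold lower (-1.20, SE 0.06, adjusted p = 1.69e-08). ATR, the kinase that answers stalled replication forks, measured 30.3, 33.8 and 38.4 CPM and then 18.7, 15.7 and 17.1 CPM, 1.99-fold lower (SE 0.10 on the log2 scale, adjusted p = 4.19e-06). ATM, the kinase that answers double-strand breaks, measured 72.1, 77.1 and 80.7 CPM and then 51.1, 57.1 and 60.4 CPM (-0.45, SE 0.07, adjusted p = 0.000118). In each kinase the groups stood apart. CHEK1, the effector of ATR, went from 41.5 ± 0.97 to 30.8 ± 2.01 CPM (-0.43, SE 0.06, adjusted p = 6.77e-05). TOPBP1, the activator of ATR, was the least changed, from 111.1 ± 2.54 to 99.1 ± 3.75 CPM (-0.16, SE 0.04, adjusted p = 0.00619), and lost its call with protein-coding transcripts alone (-0.06). ATM lost its call when its most abundant transcript stood for the gene (-0.30).

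The fall of CHEK2 was unequal among its transcripts. CHEK2-208 measured 29.9, 30.2 and 33.3 CPM in normoxia and 6.06, 7.36 and 5.09 CPM in hypoxia, 5.04-fold lower in the fit over single transcripts (adjusted p = 0.000118), and its start group dropped from 66.4% ± 1.62 to 50.2% ± 1.30 of the gene. Transcripts annotated for nonsense-mediated decay went from 13.3% ± 1.51 to 22.6% ± 1.47 and the protein-coding share from 83.8% ± 1.66 to 72.0% ± 1.33. The decay class gained in share and not in level: its largest transcript, CHEK2-214, measured 4.94 ± 0.49 and then 3.52 ± 0.78 CPM (edgeR over single transcripts, adjusted p = 0.142). In ATM, protein-coding transcripts went from 80.1% ± 1.41 to 73.9% ± 2.22 and retained-intron ones from 18.5% ± 1.21 to 24.7% ± 1.11. The largest retained-intron transcript, ATM-222, kept its level, at 4.86 ± 0.11 and then 4.87 ± 0.06 CPM. The ATM start group led by ATM-203 held 20.6%, 16.1% and 16.2% and then 11.8%, 7.70% and 8.14%. Smaller shifts of start use went towards PALB2-202, which rose in share from 22.7% ± 1.02 to 34.7% ± 7.25, and towards the CHEK1 start group led by CHEK1-201, from 6.99% ± 2.90 to 17.6% ± 4.56. PALB2-202 did not gain in expected counts, which were 234.8, 247.1 and 182.8 in normoxia and 213.4, 128.0 and 129.5 in hypoxia. PALB2-202 has 4 exons and 269 coding bases, as against 13 exons and 3558 coding bases of PALB2-201, which fell 2.40-fold (adjusted p = 0.000617). The EXO1 start group led by EXO1-202 (3 transcripts) gained share, from 23.4% ± 1.46 to 33.2% ± 2.73, although EXO1-202 itself fell 1.83-fold (adjusted p = 0.0173), while EXO1-201 fell 2.71-fold (adjusted p = 8.19e-05).

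Tested singly, 41 of 209 member transcripts (19.6%) fell and 7 (3.35%) rose, where 15.0% of all 63530 transcripts fell and 16.7% rose. Among the 7 were BRCA2-201, the main BRCA2 message, at 21.9 ± 2.75 and then 37.9 ± 6.38 CPM (adjusted p = 0.00903). Another was BRCA1-230, which begins at an upstream start on chromosome 17 at 43170245. BRCA1-230 rose from 0.78 ± 0.25 to 2.0 ± 0.42 CPM (adjusted p = 0.0294) while the start group that holds 93.5% ± 0.52 of BRCA1 in normoxia held 90.2% ± 0.55 in hypoxia.

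Several members share a starting region with a neighbour on the other strand, and 14 had such a tested neighbour within 1000 bases. The neighbour fell with the member in 5 of these pairs. AIMP2, a scaffold of the aminoacyl-tRNA synthetase complex that begins 120 bases from PMS2, had a log2 change of -0.83 (adjusted p = 1.15e-06). ANKRD49, 279 bases from MRE11, had -0.65 (adjusted p = 4.14e-05), DCTN5, 82 bases from PALB2, had -0.34 (adjusted p = 2.07e-05), HSCB, 391 bases from CHEK2, had -0.30 (adjusted p = 0.0138), and NPAT, 158 bases from ATM, had -0.26 (adjusted p = 0.00314). In other pairs the neighbour did not follow: ZFYVE21, 226 bases from XRCC3, had 0.02 (adjusted p = 0.738), and MOSPD2, 372 bases from FANCB, had 0.01 (adjusted p = 0.937). Because the use of strand in counting is not given in the sources used here, reads of overlapping genes may have been divided between them. Exon bases were shared with a tested gene on the other strand by 10 members: XRCC3, RAD54L, MRE11, FANCA, FANCL, FANCI, MSH3, MSH6, ATM and CHEK2. Of the other 25 members, 16 fell and 3 rose. These are not all free of shared exons: BRCA1, RAD52, RAD50 and CHEK1 share exon bases with a tested gene on the same strand. RAD50 shares 7784 with a protein-coding gene that went from 4.35 to 2.52 CPM on average. ZNF276, which shares 2302 exon bases with FANCA, went from 54.6 to 19.2 CPM, and KLC1, which shares 5756 with XRCC3, from 148.0 to 170.2 CPM.

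Promoter windows of 33 members were found in RefSeq (GRCh38.p14, from 250 bases before to 50 bases after the start), those of NBN and FANCI being absent from the table. A single window per gene was used. For BRCA1 its first 250 bases are chr17:43170328-43170577, beside the upstream start of BRCA1-230, which held 1.33% ± 0.44 of BRCA1 counts in normoxia. The start group with 93.5% of them, at 43125288 to 43125483, was not searched, and BRCA1 counts among the members without a match. Other windows also do not lie at the leading start group. EXO1's lies at a group with 23.4% of counts in normoxia (leading group 73.4%), ATM's at 17.6% (54.8%) and RBBP8's at 10.8% (85.4%). The first 250 bases for CHEK1 end at 125626228, downstream of its leading group at 125625974 to 125626007 (42.4%). The splits by match rest on these windows. A set of 4 forms of the E2F core, the element through which cell-cycle factors are known to act, was searched on both strands: TTTCCCGC, TTTGGCGC, TTTCGCGC and TTTGCCGC. It stood in 9 of 33 member windows (27.3%), as against 3.33% of all 27305 windows. The members were XRCC2, EXO1, FANCA, FANCC, FANCD2, MSH3, MSH6, PMS2 and TOPBP1. Matches in FANCA, FANCC and PMS2 that lie wholly before the start are given in 30-base stretches, read along the gene's strand, with the matched letters in capitals. MSH3 also had overlapping matches wholly before its start, TTTGGCGC and TTTCGCGC from base -107 to base -96, which are not printed.

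FANCA (minus strand, chr16:89816801-89816830): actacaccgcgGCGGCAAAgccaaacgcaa
FANCC (minus strand, chr9:95317863-95317892): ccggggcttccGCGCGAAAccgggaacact
FANCC (minus strand, chr9:95317737-95317766): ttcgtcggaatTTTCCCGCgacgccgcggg
PMS2 (minus strand, chr7:6009131-6009160): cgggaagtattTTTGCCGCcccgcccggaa

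Of the 9 members with a match, 6 fell and none rose, and the median log2 change was -0.27. Of the 24 without one, 16 fell and 3 rose, with a median of -0.48. The CHR letters TTTGAA, bound by cell-cycle complexes, stood in 3 member windows (9.09%) and in 15.4% of all windows. A match describes the letters in the window, and factor binding was not measured.

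The rest of the repair machinery moved in both directions. Among 13 other Fanconi genes 7 fell and 4 rose, with the ubiquitin-conjugating enzyme UBE2T at -1.11 and CENPX at -0.98 against FAAP24 at 0.88. Among 22 tested of 23 other homologous recombination genes 11 fell and 7 rose, with the helicase WRN at -1.02, the resection nuclease DNA2 at -0.94 and the recombinase cofactor SFR1 at 1.78. Of 13 other mismatch repair genes 7 fell and 5 rose. The sliding clamp PCNA had -1.11, PMS1 -1.12, the clamp-loader subunit RFC3 -1.32 and the polymerase subunit POLD4 1.92. Of 16 other checkpoint genes 12 fell and 2 rose, with the phosphatase CDC25A at -1.84, RAD9A at -1.01 and RAD1 at -0.93. The median log2 changes of these lists were -0.26, -0.17, -0.22 and -0.40.

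Repair routes that do not use recombination also held genes of both directions. In end joining 6 of 10 fell and 3 rose, among them PAXX at -0.79 and NHEJ1 at 0.78. LIG4, the end-joining ligase, had few reads and unequal normoxic libraries, at 3.14 ± 2.04 and then 0.0699 ± 0.121 CPM. In base excision repair 9 of 17 fell and 5 rose, with UNG at -1.77, PARP1 at -1.33 and APEX1 at -1.16. In nucleotide excision repair 8 of 14 fell and 5 rose, with ERCC2 at -1.82 and ERCC5 at 1.71. The members fell in 24 of 35 cases, and no test of the difference between lists was run.

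Cell-cycle genes moved beside the repair genes. Of 21 listed proliferation markers 17 fell and 2 rose, with a median log2 change of -0.41, near the -0.46 of the repair genes. MKI67, the marker of cycling cells, went from 676 ± 21.1 to 541 ± 4.30 CPM (-0.32), TOP2A, a topoisomerase of dividing cells, from 533 ± 31.0 to 283 ± 22.0 CPM (-0.92), and the mitotic kinase PLK1 from 104.5 ± 2.42 to 34.2 ± 4.70 CPM (-1.61). CCNB1, the mitotic cyclin, had -1.54 and the helicase subunit MCM6 -1.05. Of 20 listed genes of the E2F factors, the RB family and the DREAM complex, which switch cell-cycle genes on and off, 11 fell and 6 rose: E2F1 had -0.49, E2F2 -1.62 and E2F5 -1.22, and the repressor E2F7 1.51. Each of these named genes passed edgeR's test. The part that these changes had in the falls of the repair genes was not tested.

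**Figure D5:**
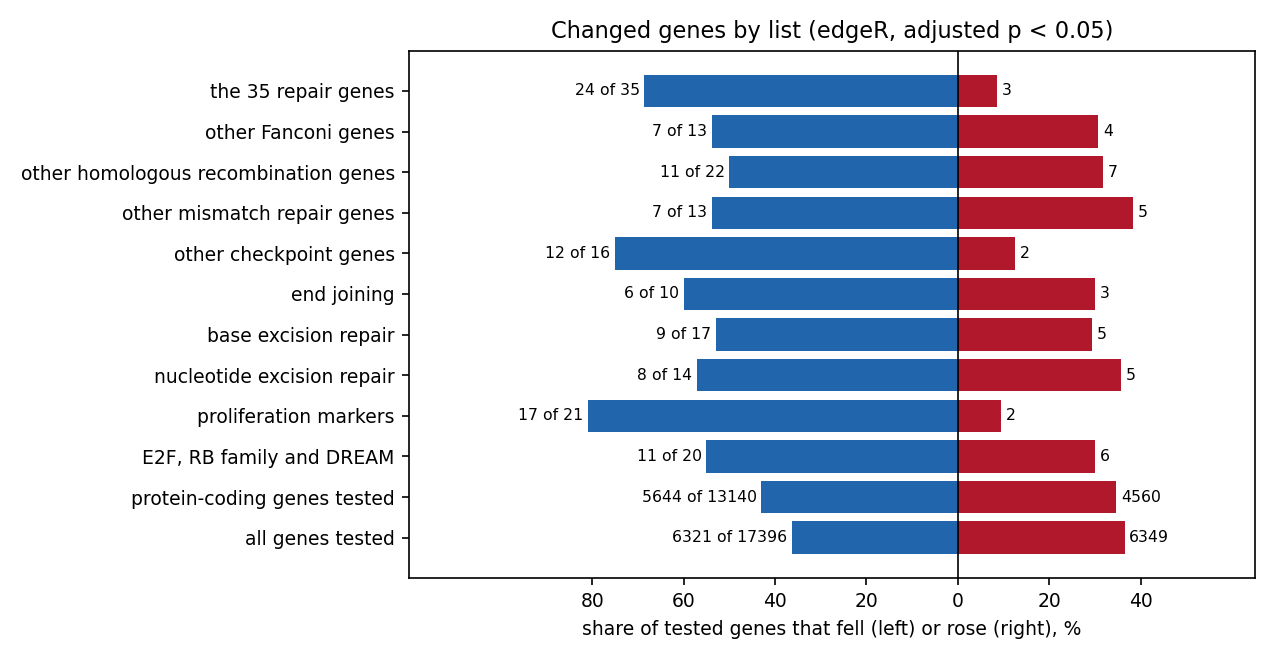
Share of tested genes in each list that fell (blue, left) or rose (red, right) in hypoxia by edgeR at an adjusted p under 0.05, with the numbers of genes beside the bars. The repair genes described here (24 of 35 lower, 3 higher) stand beside the other repair lists, the proliferation markers (17 of 21 lower, 2 higher) and all genes tested.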

How the data were processed

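The members and the gene lists were chosen with earlier results of these data known. Libraries were strand-specific, rRNA-depleted and paired-end, per the labels' protocols. Tools named in the submitters' processing notes are cutadapt, HISAT2 and RSEM, with the build GRCh38 (hg38), and versions, annotation release and strand setting were not given in the sources used here. Expected counts per transcript, deposited by the authors, are reads that RSEM divides among transcripts. The 6 deposited FPKM columns were not used, and FPKM was recomputed from the deposited expected counts and transcript lengths, which are not effective lengths. Column numbers C1 to C6 match no replicate number of the labels.

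Here, 202907 of 251062 transcript rows were matched to GENCODE 29 and summed over 58478 genes. Rows without a gene (6.12% to 6.39% of counts) were left out, so sums of genes with newer transcripts may be incomplete. Sums were rounded, filtered with filterByExpr, scaled by TMM and tested with edgeR 4.0.16 (two-sided quasi-likelihood test, R 4.3.3), with Benjamini-Hochberg adjustment over 17396 genes and a threshold of 0.05. An SE is the log2 change over the square root of F. Libraries of a group were not duplicates (chi-square per degree of freedom 4.60 to 11.0 in pairs). Start groups chain annotated starts at most 100 bases apart, and share counts used genes with 100 counts or more. Named genes are all members, up to 3 called genes with the largest changes per other list, and E2F1, MKI67, TOP2A, PCNA and NDRG1. Transcripts, neighbours and copies were picked after their values were seen.

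On simulated data for hypoxia against normoxia (17054 genes) the test recovered 80.6% of genes changed 1.5-fold, 92.5% at 2-fold and 100% at 4-fold, and called 10 unchanged genes. Alternatives were DESeq2 1.42.0, limma 3.58.1 on log2(FPKM + 0.5) and other pseudocounts, other scaling and filters, protein-coding or most abundant transcripts only, and leaving out each library. A fit per transcript, the count of members without an opposite-strand exon overlap and RBBP8 shares from FPKM were added after seeing the data.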

Additional observations from a re-analysis of the deposited data

How the results depend on the processing

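Between 18 and 26 members fell under the alternatives run, as against 24. The count was 21 to 23 with a library left out and 18 with protein-coding transcripts only. It was 16 of the 25 members that share no exon bases with a tested gene on the other strand. The count of risen members was 5 with a filter of mean CPM 1 and 2 to 4 under the others, as against 3. Their median log2 change was -0.61 with library totals, -0.48 without a filter, -0.42 with the CPM filter, -0.38 with protein-coding transcripts, -0.40 with the most abundant transcript and -0.61 with limma on log2(FPKM + 0.1), and it ran from -0.43 to -0.50 with a library left out. Library totals moved the median of all genes from 0.02 to -0.13, and the members' median stood at -0.48 relative to it either way. The shift of RBBP8-201 by 46.4 points was 39.1 points from FPKM and 44.9 to 47.4 points with a library left out. Signs turned in 6 members, none of which had passed: BARD1 (-0.012 with library totals), BRCA1 (0.085 with protein-coding transcripts), FANCC (-0.033 with library totals, -0.13, -0.14 and -0.13 with limma at pseudocounts 0.5, 0.1 and 1), RAD52 (-0.039 with library totals, -0.42 with protein-coding transcripts and -0.61 with the most abundant transcript, both past the threshold, and -0.051, -0.056 and -0.047 with limma), FANCM (-0.22 to 0.088 with a library left out) and FANCD2 (-0.15 with library totals, -0.021 without a filter, -0.026, -0.027 and -0.025 with limma, and -0.099 to 0.15 with a library left out). The cause was not tested. No paired analysis was possible because the columns carry no replicate number of the labels. The SE was largest for FANCF, MSH3 and FANCL, which had few counts.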
